A study of Homo sapiens with 2 samples.

Results

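In the small RNA library of U87MG cells, 217 piRNA database entries carried a U at base 1 and an A at base 10. Both letters are known from piRNA amplification, where each is typical of a different partner. Base 1 and base 10 were read from the listed sequence, where U is written as T. The entries were chosen by these letters, by their listed length of 28 to 31 bases, and by a count of 10 or more reads. They made up 23.0% of the 943 entries of these lengths with 10 or more reads (Clopper-Pearson 95% interval 20.4 to 25.8%) and 2.07% of all 10487 listed entries. Together they had 85228 reads, or 0.325% of the 26189636 reads of those 943 entries (0.323 to 0.328%). The other 726 entries had 26104408 reads. Read counts and letters therefore chose the set, and what follows on them is a description of 1 library with no test.

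U87MG is an established human glioblastoma cell line. It was grown untreated in MEM with 10% FBS and 1% antibiotics, and the series holds 1 small RNA library and 1 mRNA library of it, with no replicate and no control. The values are raw read counts per piRNA entry, 27299683 in all, and FPKM per gene. Intervals cover counting error only, and those on read shares treat each read as independent. PCR copies of 1 molecule cannot be told from separate molecules here, so those intervals can be too narrow.

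piRNAs are small RNAs bound by PIWI proteins, which silence transposable elements, mainly in the germ line. Primary piRNAs tend to begin with U. In the amplification loop called ping-pong, a PIWI protein guided by such a piRNA cuts a transcript of the opposite strand across from base 10, so the new piRNA overlaps the first by its opening 10 bases and tends to carry an A at base 10. A database entry counts reads that match a sequence once submitted as a piRNA. The count does not show that the reads came from a PIWI protein.

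The 15 members with the most reads held 83.8% of the member reads (83.5 to 84.0%). Of these, 9 are printed, among them the 7 with the most reads, because the read total rests largely on those. Base 1 and base 10 are in capitals, 5′ to 3′, with T for U.
PIR193250: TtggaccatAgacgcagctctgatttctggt
piR-52404: TgcgcatgaAtgaatgaacgacggtgtt
PIR193220: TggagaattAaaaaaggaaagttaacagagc
piR-51657: TgccatggtAatcctgctcagtacgaga
piR-48966: TgaggagccAatggggcgaagctaccatc
piR-55292: TggctggctAggccagtgtgcccttcttcc
piR-55216: TggctattcAcaggtgcggtcatagcaatc
piR-50811: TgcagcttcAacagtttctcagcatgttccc
piR-61537: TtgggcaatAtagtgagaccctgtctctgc

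PIR193250 led the members with 16633 reads, 19.5% of the member reads (19.3 to 19.8%). piR-52404 followed with 15723 reads and PIR193220 with 12773. These 3 entries held 53.0% of the member reads (52.6 to 53.3%), so the total of the class rests largely on them. piR-51657 had 6350 reads and piR-48966 had 4708. piR-55292 had 2699 reads and piR-55216 had 2615. Further down, piR-50811 had 1037 reads and piR-61537 had 791. Without the 15 leading members, the other members had 13849 reads.

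Entries without both letters held the highest ranks. PIR193250 was 34th by reads among the 943 entries and 47th in the whole list. piR-61537, the 15th member, was 132nd among the 943. Many members were close to the read minimum: 91 of 217 (41.9%) had 10 to 19 reads and held 1.43% of the member reads. Another 53 had 20 to 49 reads, 27 had 50 to 99, 33 had 100 or more but under 1000, and 13 had 1000 or more. Those 13 held 81.7% of the member reads.

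At the read minimum, 20 members had exactly 10 reads, among them piR-37099, piR-37289 and piR-38728. Just below it, 16 entries of the same lengths and letters had 9 reads, among them piR-42619, piR-45820 and piR-46157. Of all 1805 entries with these lengths and letters, 1588 (88.0%) had fewer than 10 reads, and 731 had 1 read. The entries below the minimum had 3713 reads together, which is small beside the 85228 reads of the members.

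The members had fewer reads per entry than the 726 other entries as a whole, and about as many as the other entries that share one of the letters. The median was 26 reads per member (quartiles 14 and 82), against 36 reads per other entry (15.3 and 253.5). By class, the median was 29 reads (15 and 120) in 435 entries with a first U and another base 10, and 24.5 (15 and 169.3) in 114 entries with the A at base 10 and another first base. It was 229 reads (25 and 1488) in 177 entries with neither letter. The gap to the other entries as a whole therefore lay mostly in the entries that have neither letter. Entries of 1 library are not replicates, and some overlap in sequence, so no test was made.

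Entries with high counts were a smaller share of the members than of the other entries. No member reached 100000 reads, whereas 13 other entries did, 5 of them with a first U, 1 with the A at base 10, and 7 with neither. In all, 46 of 217 members (21.2%, interval 15.96 to 27.2%) had 100 or more reads, against 265 of 726 other entries (36.5%, 33.0 to 40.1%). Among entries with a first U only, 119 (27.4%, 23.2 to 31.8%) reached that level. These intervals treat entries as independent, although some overlap in sequence, so comparing them is no test. Among entries with the A at base 10 only, 35 (30.7%, 22.4 to 40.03%) did, and among those with neither letter 111 (62.7%, 55.1 to 69.9%). At 1000 or more reads there were 13 members, or 5.99%, against 102 other entries, or 14.0%.

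Entries with many reads in the other classes are printed to show how they differ at bases 1 and 10, again in capitals.
piR-60576: TtccgtagtGtagtggttatcacgttcgcc
piR-33151: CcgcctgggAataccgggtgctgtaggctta
piR-36063: GgcgggagtAactatgactctcttaaggta
piR-31052: AgcagttgaAcatgggtcagtcggtcctg
piR-35982: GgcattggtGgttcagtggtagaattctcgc
piR-36378: GgttccatgGtgtaatggttagcactctg
piR-36041: GgccgtgatCgtatagtggttagtactctg

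piR-60576, with a first U and a G at base 10, had 704713 reads, and was not the highest of its class. piR-33151 had 1297170 reads, 89.2% of the reads of entries with the A at base 10 only, ahead of piR-36063 with 36607 and piR-31052 with 23571. piR-35982 had 5357269 reads, 59.7% of the reads of entries with neither letter, ahead of piR-36378 with 1049699 and piR-36041 with 665466. Without the 10 entries with the most reads, none of which is a member, the member share of the reads was 5.02% in place of 0.325%.

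The member share differed by length, and the lengths with the most entries were not those with the most reads. At 28 bases, 33 members (16.8% of entries) had 23200 reads, 5.26% of the reads of that length (5.20 to 5.33%). At 29 bases, 68 members (26.9%) had 11781 reads, or 0.903%, and at 30 bases, 83 members (27.5%) had 16454 reads, or 0.744%. At 31 bases, 33 members (17.2%) had 33793 reads, or 0.152% (0.150 to 0.154%), beside the 22198279 reads of the other entries of that length.

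One entry weighed heavily on most lengths. piR-52404 held 67.8% of the member reads at 28 bases, PIR193250 49.2% at 31 bases, piR-48966 39.96% at 29 bases and piR-55292 16.4% at 30 bases. The median per member was 16 reads at 28 bases against 30 in the other entries, 24 against 35 at 29 bases, and 26 against 69 at 31 bases. At 30 bases it was 37 reads per member against 30 per other entry, so the order turned at that length.

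Over the 943 entries, the letters did not occur together more often than their separate shares give. A first U was present in 652 of the 943 entries (69.1%) and an A at base 10 in 331 (35.1%). The product of these shares is 24.3%, or 228.9 entries, beside the 217 observed. An A stood at base 10 in 33.3% of the entries with a first U (29.7 to 37.0%) and in 39.2% of the 291 entries without one (33.5 to 45.0%). Over all 7211 entries of 28 to 31 bases with any read, the shares were 31.7% (30.5 to 33.0%) and 42.2% (39.7 to 44.7%). Because some entries overlap in sequence and the intervals treat them as independent, comparing intervals is no test. In the 311 entries with 100 or more reads both letters occurred in 14.8%, beside a product of 13.8%, and the shares were 27.9% (21.2 to 35.4%) and 24.0% (17.3 to 31.7%). These counts describe the sequences in the database that matched reads, not the first bases of the reads themselves.

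By reads, the entries with an A at base 10 held 0.541% of the reads of entries with a first U. They held 13.9% of the reads of entries without one, most of this second share being piR-33151. The first share also leans on a single entry, since the leading first-U-only entry held most of the reads of its class. Among the 652 entries with a first U, A was more frequent at base 10 (33.3%) than at any other base from 2 to 28. Base 5 came next with 32.2%, and base 2 was lowest with 16.3%. The median over those other bases was 24.0%. Base 10 was thus the highest, by a small margin over base 5. The 291 entries without a first U also had their highest share of A at base 10. It was 39.2% there, so the peak at base 10 was not particular to entries with a first U.

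Beside the chosen letters, the members resembled the other first-U entries at base 2 in part. G followed the first U in 107 members (49.3%), against 48.3% of the first-U-only entries. T followed it in 30 members (13.8%) against 6.44%, and C in 39 (18.0%) against 28.7%. The members with G at base 2 held 70.7% of the member reads with a median of 37, and those with T held 25.2% with a median of 35. These read shares lean on the leading members. PIR193250 alone had 16633 of the 21507 reads with T, and piR-52404 and PIR193220 have G. Those with A or C both had a median of 17 reads.

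Just before the chosen A, base 9 was G in 34.6% of the members, C in 28.1% and T in 14.7%. In the first-U-only entries base 9 was G in 21.8%, C in 17.7% and T in 31.5%. Entries with the A at base 10 only had G in 27.2%, C in 24.6% and T in 24.6% at base 9. Those shares lay between the members and the first-U-only entries. The members had G at base 26 in 43.3%, against 29.4% of the first-U-only entries. The last base was C in 44.2% and G in 11.1% of the members, against 39.8% and 9.66% of the first-U-only entries. The GC content had a median of 48.3% in the members (quartiles 41.9 and 53.3%), against 51.6% in all other entries (45.2 and 56.7%), but the chosen T and A lower it in the members. Without bases 1 and 10 the median was 51.7% in the members (44.8 and 57.1%), against 51.9% in all other entries (46.2 and 57.7%), so the gap lay almost wholly in the chosen letters. Some entries overlap in sequence, so these shares do not come from independent sequences.

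Members without an NCBI identifier held a large share of the member reads, almost all of it in PIR193250 and PIR193220. In the whole list 20 entries carry no NCBI identifier, and their names begin with PIR. Only 4 of these are members, yet they had 29458 reads, 34.6% of the member reads (34.2 to 34.9%). Those are PIR193250, PIR193220, PIR193171 with 41 reads and PIR193195 with 11. Among the 726 other entries, PIR193218 with 73 reads was the only entry without an NCBI identifier. The 213 members with an NCBI identifier had 55770 reads.

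Most members shared no long stretch with another of the 943 entries, and the same held for most of the other entries. Entries were put in 1 family if they shared 20 bases in a row on the same strand. A changed base can break such a run, so some near variants, such as piR-57135, stood alone. By this rule 189 members stood alone among the 943 entries and 28 (12.9%) shared a family, against 125 of the other entries (17.2%). There were 8 families with 2 or more members, 18 members in all, and 1 of them had 3 or more. How the authors counted reads that match several entries is not given in the sources used here, so counts within a family cannot be assigned separately with certainty. Over the whole list, 42 members had an overlapping entry and 175 had none. The 175 held 67.6% of the member reads. The leading member, PIR193250, was among the 42 only through an entry with 1 read. The same count for the other entries is not given here.

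Members with nearly the same sequence had unequal counts. Over all members, 48 pairs with the same start differed at 4 bases or fewer within their shared length, and these involved 34 members. In 37 of the pairs the higher count was 2 or more times the lower one, with ratios from 1.14 to 121.9. Most of the pairs came from a small group of related members that recur in many pairs, so the pairs are not independent. How reads were divided among such entries is not known.

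Opening stretches that pair with each other were looked for, because a ping-pong pair overlaps by 10 bases and then runs apart. For 2 entries that both begin with U, a match over exactly the first 10 bases sets an A at base 10 in both, so the letters that chose the members also allow such pairs. Among the members, 22 pairs had exactly complementary first 10 bases, 1 pair had 11 such bases, and none had 8, 9 or 12. Because the letters of the members already fix the outer pairs of a match over 10 bases, and of no other length, the counts at different lengths are not on an equal footing. Over all 943 entries there were 26 pairs at 8 bases, 15 at 9, 35 at 10, 6 at 11 and 4 at 12. Of the 35 pairs at 10 bases, 22 joined 2 members. In the whole list there were 1321, 362, 279, 49 and 22 pairs at those lengths, and 170 of the 279 at 10 bases joined entries with both letters.

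The 22 pairs rested on 24 members (11.1%) and on 6 different pairs of openings, so the pairs are not independent. Over all 943 entries, 44 were in a pair over 10 bases. One pair is printed, with the complementary bases in capitals, to show what such partners look like.
piR-51422: TGCCACTGCActccagccctagtgataga
piR-50956: TGCAGTGGCAgtcaattccacagaggatgc
piR-51422 had 406 reads and piR-50956 had 96. All paired members together had 6041 reads, 7.09% of the member reads. Their median was 97 reads, against 24 in the 193 members without such a partner. Only 2 of the 15 leading members were in a pair within the members.

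Counting partners of any length and any read count, 50 members (23.0%) had one. In the whole list, 417 of 10487 entries were in a pair over 10 bases. The chosen letters allow such pairs, so these shares are not on an equal footing. Most of the partners outside the members had fewer than 10 reads. The pair with the highest counts on both sides lay partly outside the length window.
piR-50811: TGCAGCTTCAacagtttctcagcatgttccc
piR-47161: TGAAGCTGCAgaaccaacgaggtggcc
piR-50811 had 1037 reads and its partner of 27 bases, piR-47161, had 2307. The partner also begins with U and carries an A at base 10.

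One member is a piece of a miRNA precursor. Of 1562 miRNA hairpins in RefSeq (GRCh38.p14), 1 member shared 16 or more bases in a row with any, against 6 of the other entries. It is printed with the mature miRNA in capitals.
piR-49144: TGAGGTAGTAGGTTGTATAGTTttagggtc
All 30 bases of piR-49144 lie in the hairpin of MIRLET7A1, and its first 22 bases are let-7a-5p, a miRNA known to restrain growth genes. It shared 23 bases with MIRLET7A2 and with MIRLET7A3. piR-49144 had 120 reads in the piRNA list, whereas let-7a-5p had 325277 in the miRNA list of the same library. The first U and the A at base 10 of this member are thus letters of a miRNA.

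The genes of the piRNA pathway were mostly not listed in the mRNA library. Of 21 genes, 6 had a row and 4 were at 1 FPKM or more. These were MYBL1, a germ-line transcription factor for piRNA genes in the mouse, at 11.004 FPKM, TDRD7 at 6.90, PLD6, a mitochondrial nuclease, at 3.66, and TDRKH, a Tudor protein that binds PIWI proteins, at 2.001. PIWIL2 was at 0.109 FPKM and PIWIL4 at 0.0775. PIWIL1 and PIWIL3 had no row. The germ-line factors DDX4, MAEL, TDRD1, TDRD9 and TDRD12, which act in the pathway in the mouse, had none either. Nor did TDRD5, TDRD6, HENMT1, PNLDC1, ASZ1, MOV10L1, GTSF1 and FKBP6. A missing row is not by itself a lack of expression. The share of all genes with a row, or at 1 FPKM or more, is not given here. These counts therefore do not set the pathway apart from other genes.

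As a check of the label, VIM was at 2420 FPKM, CD44 at 560 and NES at 1.38. GFAP, the filament protein of astrocytes, was at 0.331, and S100B, SOX2 and OLIG2 had no row. Germ cell genes were below 1 FPKM, with DAZL at 0.597, SYCP3 at 0.352 and TEX14 at 0.252 and no row for DDX4 and MAGEA4. PTPRC of blood cells and PECAM1 of endothelium had no row. Whether the member reads depend on any of these genes was not tested.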

How the data were processed

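The small RNA values are raw read counts per piRNA entry and per mature miRNA, deposited by the authors, with a sequence and a length for each entry. The mRNA values are FPKM per gene, deposited by the authors. Small RNA was prepared with a NEBNext kit, per the labels' protocols. The submitters' processing notes name cutadapt, hg19 and GRCh37. Not given in the sources used here are the aligner, the counter and the rule for reads with several matches.

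All listed lengths equalled the sequence lengths, no sequence was listed more than once, and every entry had at least 1 read. No member holds an N. Shares have exact Clopper-Pearson 95% intervals for counting error only (Python 3.11.15, pandas 2.3.3, scipy 1.17.1). For shares of entries, the intervals treat entries as independent, which entries that overlap in sequence are not. Families, complementary openings and hairpin matches are exact runs, and the search for families and openings was tested on simulated sequences. With 1 library no test was made. The set, the gene lists and the rules were chosen with earlier results of these data known. Named were the 15 members with the most reads, all of the family with 3 or more members, members in complementary pairs, the 3 leading entries of each other class, and entries at the read minimum. Some of these entries are not reported here. Other named entries were chosen after their values were seen.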

Additional observations from a re-analysis of the deposited data

Results flagged for a closer look

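Outside the length window, 79 entries of 22 to 32 bases with 10 or more reads also had a first U and an A at base 10, with 47873 reads. The 2 highest stood out because their counts are as high as those of leading members, although their lengths keep them out of the set.
piR-48419: TgagagaaaAgcatttgccaagactt
PIR193269: TtcaactgcAgctgaggaagagggc
piR-48419, of 26 bases, had 25646 reads, more than any member. PIR193269, of 25 bases, had 11110 reads and carries no NCBI identifier.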

How the results depend on the processing

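Values are given in the order of the settings named. The members' share of entries, 23.0% as reported, was 18.5 and 14.8% at read minimums of 50 and 100, 16.8, 26.9, 27.5 and 17.2% at 28, 29, 30 and 31 bases alone, and 33.3 and 65.6% against first-U-only and A-at-base-10-only entries; it stayed inside its interval in 8 other settings. The share of reads, 0.325%, was 0.339, 0.330, 0.321, 0.315 and 0.307% at minimums of 1, 5, 20, 50 and 100, and 0.447% at 26 to 32 bases. At single lengths it was 5.26, 0.903, 0.744 and 0.152%. It was 0.348% with 1 entry per family, 5.02% without the 10 entries with the most reads, 0.262% without PIR193250, and 0.541 and 5.54% against the same pair of classes. The ratio of medians, 0.722, was 0.442 at a minimum of 20 and 1.23 and 0.377 at 30 and 31 bases; it was 1.06 against A-at-base-10-only entries and below or at 1 elsewhere. The top member's share of member reads, 19.5%, was 18.7, 19.2, 19.8, 20.2 and 20.7% at those minimums, 21.0% at 26 to 32 bases, 67.8, 39.96, 16.4 and 49.2% at single lengths, 19.9% with 1 entry per family and 22.9% without PIR193250. The top member differs between these settings. The cause of these shifts was not tested. No paired analysis was possible because there is 1 library of each kind. Depth limits the entries near 10 reads most.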
